A study of Sus scrofa with 6 samples.

Results

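The genes described here encode the subunits, activators, inhibitor and assembly factors of the constitutive proteasome. They were taken from the platform annotation as every gene, among probe sets with a single symbol, whose symbol starts with PSMA, PSMB, PSMC, PSMD, PSME, PSMF or PSMG, leaving out the immunoproteasome genes PSMB8, PSMB9 and PSMB10. This gave 38 genes of the 6765 genes measured, each represented by the probe set that was brightest on average across the 6 arrays. The arrays were Affymetrix porcine expression arrays hybridized with total RNA from untreated cells of a pair of pig lines. The labels give OBGF400 as a line of neuroblasts from the porcine olfactory bulb, and PK15 as a kidney line, non-neuronal and of epithelial origin. PK15 served to subtract a somatic background, so that transcripts preferred by the neuroblast line could be seen. In each line, RNA from 9 independent cultures was combined into 3 pools with 1 array per pool. Both media held 10% bovine calf serum, OBGF400 was grown in a DMEM/F12/HAM medium and PK15 in minimum essential medium with amphotericin B, so line and medium cannot be told apart. Each line is a single cell line, and the spread between arrays is that between pools of its cultures, not between animals.

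The proteasome is the protease that degrades proteins tagged with ubiquitin. Its core particle is a stack of alpha and beta rings, with the proteolytic sites on the inner faces of the beta subunits PSMB5 (chymotrypsin-like), PSMB6 (caspase-like) and PSMB7 (trypsin-like). The regulatory particle caps the core. Its base holds a ring of ATPases that unfolds the substrate and opens the gate, and its lid holds PSMD14, the enzyme that removes the ubiquitin chain. Other caps, the PSME activators, open the core without ubiquitin recognition. In neurons and their precursors, as in dividing cells, the complex sets the lifetime of many short-lived proteins.

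The deposited values are log2 signals with a common lower limit of 2.13, here called the floor, which 25.8% to 27.3% of each array's probe sets shared. No proteasome gene lay at the floor, and their values ranged from 7.08 to 13.64 in OBGF400 and from 8.07 to 13.97 in PK15. Levels of different genes are not set against each other, since probe sets differ in brightness. Of 6 epithelial markers, all were higher in PK15, with differences (OBGF400 minus PK15, log2) from -12.14 to -9.62. Of 6 measured neural progenitor and neuron markers, NCAM1, MAP2 and UCHL1 were higher in OBGF400, STMN1 was lower, and GAP43 and ELAVL4 lay at the floor in both lines. The listed markers NES, DCX, SOX2, PAX6 and TUBB3 have no named probe set and were not analysed here. Of 5 measured mesenchymal markers 4 were higher in OBGF400, with COL1A2, a fibrillar collagen chain, at 12.82 ± 0.20 against 2.91 ± 0.26 (SD, n = 3), and COL3A1 did not pass the test. Of 5 leukocyte markers, LAPTM5, AIF1 and SPI1 were lower in OBGF400 and CD14 was higher, while PTPRC lay at the floor in both lines. Of 2 astrocyte markers, the filament gene GFAP was lower in OBGF400 (2.64 ± 0.30 against 7.74 ± 0.27, SD, n = 3), and S100B did not pass (2.51 ± 0.41 against 2.20 ± 0.02, SD, n = 3; adjusted p = 0.312, limma). The linear signals were also summed over each list and given as log2. For the epithelial markers the sums were 4.99 to 5.15 on the OBGF400 arrays and 16.24 to 16.27 on the PK15 arrays. In the same order they were 15.64 to 15.72 and 5.10 to 5.64 for the mesenchymal markers. For the leukocyte markers they were 6.19 to 6.52 and 11.84 to 11.94. The neural list differed by less, with 12.8 to 12.91 and 11.75 to 11.95, and the astrocyte list gave 3.29 to 3.9 and 7.47 to 7.98. Such sums rest mostly on the brightest probe sets, as on ACTA2 (mean 15.09) for mesenchyme in OBGF400. The neural sum rested mostly on UCHL1 (12.34) in OBGF400 and STMN1 (11.85) in PK15. The part of these identity differences in the proteasome values was not tested, and in such bulk RNA fewer cells with a transcript and less of it per cell cannot be told apart.

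Most proteasome genes had lower signals in OBGF400 than in PK15. Of 38 genes, 26 were lower (68.4%), 4 were higher (10.5%) and 8 did not pass the test (limma, Benjamini-Hochberg adjusted p under 0.05 over all 6765 genes). Over all genes, 36.8% were lower and 23.9% were higher, 60.8% in either direction. Among the 3382 genes with a mean signal above the median, tested alone, 51.6% were lower and 32.4% higher, so the share of lower proteasome genes stood nearer to that of well-detected genes than to that of the whole table. The median difference was -0.45 on the log2 scale for the proteasome genes, -0.002 for all genes and -0.274 for the genes above the median signal. For 32 of the 38 genes the values of OBGF400 and PK15 had no overlap, where 66.9% of all genes had none. OBGF400 was below for 27 of them and above for 5, against 40.1% and 26.8% of all genes. Among the 3382 genes above the median signal, OBGF400 was below for 1791 and above for 1140, and 451 overlapped. The share of proteasome genes without overlap therefore stood near that of well-detected genes. At least 2-fold falls were called for 11 of the 38 genes, where 22.0% of all genes had such a fall. No proteasome gene had a called rise of that size, where 13.8% of all genes had. Of the 3382 genes above the median signal, 844 had such a fall and 510 such a rise, by the test over all genes. The share of such falls among the proteasome genes was thus only slightly higher than among well-detected genes. Adjusted p-values of the called genes ran from 8.04e-05 for PSMD14 to 0.0394 for PSMB1.

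These directions depend on how the arrays are scaled. The hybridization controls, added in equal amounts before hybridization, had higher signals on the PK15 arrays, and the poly-A controls dap and thr, added to the RNA, had higher signals on the OBGF400 arrays. Scaling on the former moved the median difference of all genes to 0.821, and scaling on the latter moved it to -0.856. With hybridization control scaling 18 proteasome genes were higher and 9 lower, where 66.3% and 18.6% of all genes were. With poly-A control scaling 35 of the 38 were lower and none was called higher by limma (0 at an unadjusted p under 0.05), where 77.1% and 11.3% of all genes were. The 9 genes lower under all 3 scalings were PSMA4, PSMA5, PSMB5, PSMB6, PSMD3, PSMD4, PSMD8, PSMD10 and PSMD14. They make 23.7% of the proteasome genes, against 18.6% of all genes lower under all 3. No proteasome gene was higher under all 3, where 11.2% of all genes were. A control scaling shifts all genes of an array by the same amount. The test treats the spread of that shift between arrays as if it were separate for each gene. Calls under control scaling, including those of the 9 genes, are therefore description only. Below, differences are those of the table as deposited, and a difference between a pair of genes does not change with a constant scaling of an array.

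**Figure D1:**
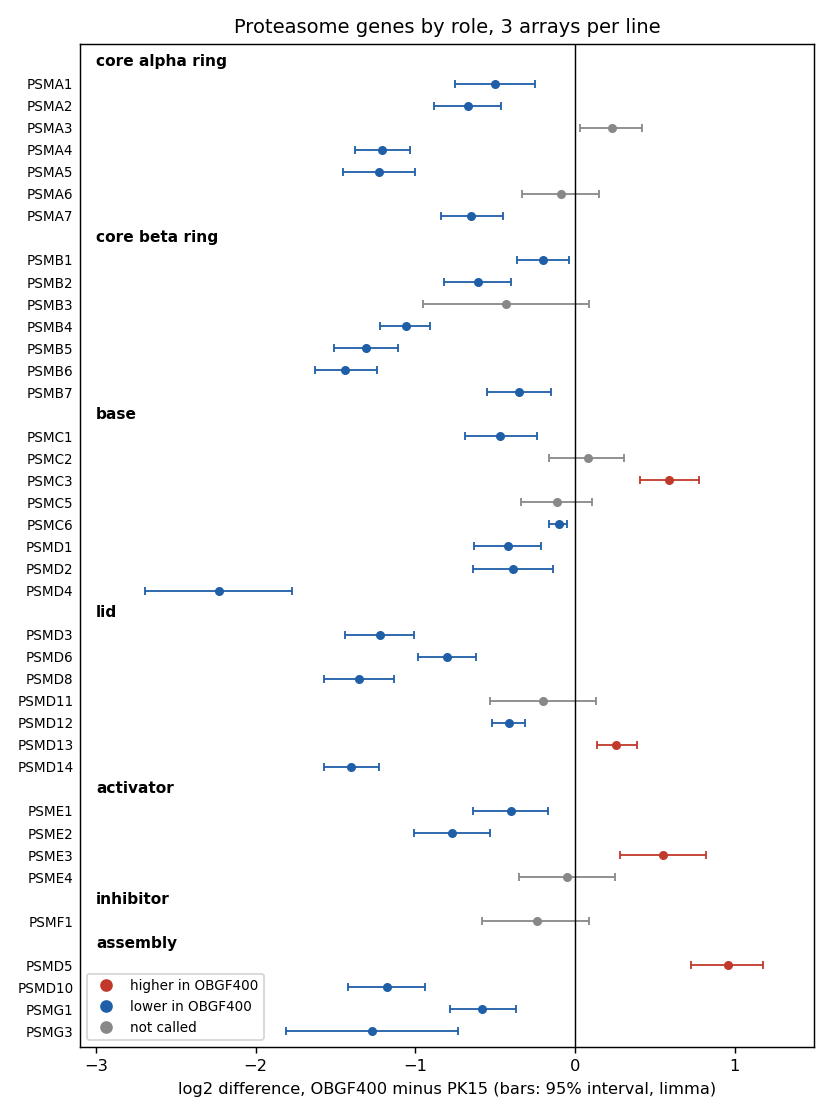
Log2 difference in signal (x axis, OBGF400 minus PK15) of the 38 proteasome genes, arranged by role; points are limma estimates from 3 arrays per line, bars are 95% intervals, and colour gives the call at an adjusted p of 0.05. PSMD4 lies lowest at -2.23 and PSMD5 highest at 0.96, and 32 of the points lie below 0 with the table scaled as deposited.

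The alpha ring, which forms the outer gate of the core particle, had 5 of 7 genes lower in OBGF400 and 0 higher by limma (1 higher at an unadjusted p under 0.05), with a median of -0.65. PSMA5 had signals of 11.59, 11.64 and 11.53 on the OBGF400 arrays and 12.70, 12.98 and 12.77 on the PK15 arrays. Its arrays were clearly apart, and the difference was -1.23 ± 0.08 (SE; adjusted p = 0.000259, limma), a 2.34-fold fall. PSMA4 gave 11.65, 11.49 and 11.62 in OBGF400 against 12.71, 12.88 and 12.78 in PK15, a difference of -1.21 ± 0.07 (SE; adjusted p = 0.000133, limma). Every OBGF400 array of PSMA4 lay below every PK15 array, by about as much as for PSMA5. PSMA2 gave 12.44, 12.55 and 12.46 against 13.09, 13.31 and 13.07, lines that stood apart by a smaller step. It differed by -0.67, PSMA7 by -0.65 and PSMA1 by -0.50, all called, and under hybridization control scaling they became 0.15, 0.17 and 0.32. PSMA6 had the smallest difference of the ring, with 12.78, 12.75 and 12.85 in OBGF400 against 12.81, 13.06 and 12.78 in PK15, and the lines overlapped (adjusted p = 0.454, limma). PSMA3 was the alpha gene above 0, at 13.64, 13.64 and 13.58 against 13.31, 13.55 and 13.33. Its arrays did not overlap, but its difference of 0.23 did not pass the test (adjusted p = 0.054, limma), and it passed without PK15 replicate 2 (0.30, adjusted p = 0.00232, limma). The ring thus spanned from PSMA5 at -1.23 to PSMA3 at 0.23. The products of its 7 genes enter the complex in equal numbers.

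In the beta ring, 6 of 7 genes were lower in OBGF400 and 0 higher by limma (0 higher at an unadjusted p under 0.05), with a median of -0.61. The genes of the proteolytic sites were all lower but not by the same amount. PSMB6, the caspase-like subunit, had signals of 11.81, 11.71 and 11.63 in OBGF400 and 13.06, 13.26 and 13.15 in PK15. The difference of -1.44 ± 0.07 (SE; adjusted p = 0.000105, limma) was a 2.71-fold fall and the lowest of the core particle. PSMB5, the chymotrypsin-like subunit and the main target of proteasome inhibitor drugs, gave 10.58, 10.62 and 10.40 against 11.79, 11.92 and 11.81. It differed by -1.31 ± 0.08 (SE; adjusted p = 0.000158, limma), a 2.48-fold fall with no overlap between lines. PSMB7, the trypsin-like subunit, gave 12.36, 12.43 and 12.44 against 12.65, 12.90 and 12.71, lines that stood apart by less. Its difference was -0.35 ± 0.07 (SE; adjusted p = 0.0139, limma), and without OBGF400 replicate 1 it was no longer called (-0.32, adjusted p = 0.0522, limma).

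The ratio of PSMB6 to PSMB7 within each array, which no scaling of an array changes, was lower in OBGF400 by 1.09 on the log2 scale, a 2.13-fold change. Relative to the PK15 mean it was -0.95, -1.12 and -1.21 on the OBGF400 arrays and 0.01, -0.05 and 0.04 on the PK15 arrays, so the lines did not overlap. The ratio of PSMB5 to PSMB7 changed by -0.96, with an SD of 0.14 over the OBGF400 arrays and 0.06 over the PK15 arrays (n = 3 each). That of PSMB6 to PSMB5 changed by -0.13, with SDs of 0.08 and 0.04 in the same order. Each of these ratios gave an exact two-sided permutation p of 0.1, the smallest that 3 arrays against 3 allow, and they were chosen after the values had been seen. Among the beta genes without a proteolytic site, PSMB4 had the largest fall, with 12.19, 12.29 and 12.20 against 13.24, 13.40 and 13.22, a difference of -1.06 (adjusted p = 0.000142, limma). PSMB2 differed by -0.61 (adjusted p = 0.00231, limma). PSMB1 had the smallest difference of the ring, at 12.98, 12.96 and 12.96 against 13.08, 13.29 and 13.14. Its difference of -0.20 was called (adjusted p = 0.0394, limma), and was not called without any of the OBGF400 replicates in turn (adjusted p from 0.0983 to 0.11, limma) or without PK15 replicate 3 (adjusted p = 0.0806, limma). PSMB3, with 8.57, 8.27 and 8.24 against 8.46, 9.08 and 8.83, overlapped between lines and did not pass (-0.43, adjusted p = 0.128, limma). Without PK15 replicate 1 it differed by -0.59 and passed (adjusted p = 0.0395, limma).

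**Figure D2:**
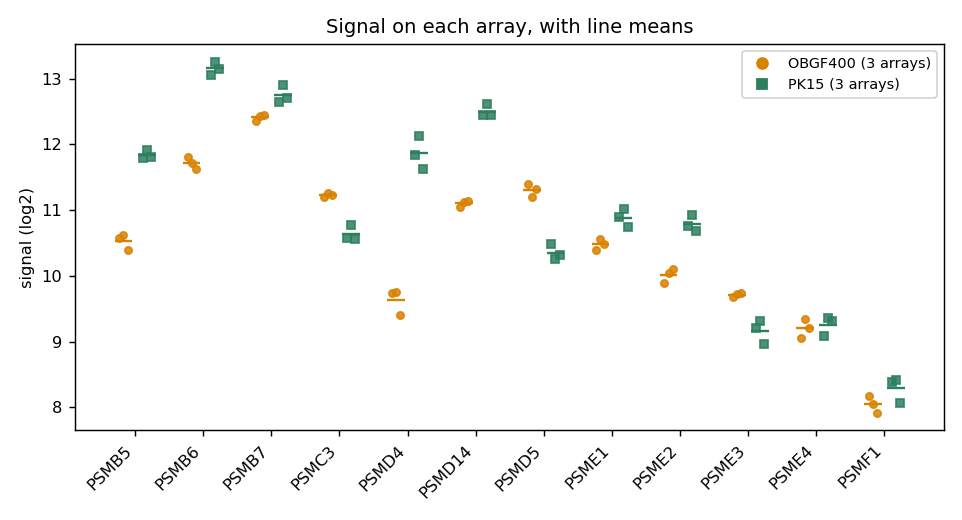
Log2 signal (y axis) on each of the 3 OBGF400 arrays (circles) and 3 PK15 arrays (squares) for 12 genes of the core, base, lid, assembly factors, activators and inhibitor; short lines are line means. PSMB5, PSMB6, PSMD4 and PSMD14 lie lower in OBGF400, PSMC3, PSMD5 and PSME3 lie higher, and PSME4 overlaps; under poly-A control scaling PSMC3 and PSME3 become -0.26 and -0.30.

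The base is the part of the regulatory particle that sits on the core. Its 5 measured ATPase genes had a median difference of -0.10, with single differences in both directions, from -0.47 for PSMC1 to 0.59 for PSMC3. Of these, 2 passed as lower, 1 as higher and 2 did not pass. PSMC4 has no probe set named for it and was not analysed here. PSMC3 was the ATPase gene that rose, with 11.20, 11.26 and 11.23 in OBGF400 against 10.57, 10.78 and 10.56 in PK15. The OBGF400 arrays all lay above those of PK15, and the difference was 0.59 ± 0.07 (SE; adjusted p = 0.00156, limma), which became -0.26 under poly-A control scaling. PSMC1 was the lowest ATPase gene, with 10.91, 10.92 and 10.96 against 11.26, 11.56 and 11.38, a difference of -0.47 (adjusted p = 0.00766, limma). PSMC6 was called with a difference of only -0.10, since its arrays agreed within an SD of 0.02 in OBGF400 and 0.03 in PK15. It was not called when genes below the 25th percentile or the median of signal were left out (adjusted p = 0.156 and 0.184, limma). PSMC5 (-0.11) overlapped between lines and did not pass. PSMC2 gave 12.43, 12.41 and 12.31 against 12.20, 12.47 and 12.24, the smallest difference of the base (0.08, adjusted p = 0.524, limma). Its other probe sets gave 0.27 and 0.64, both called, so the PSMC2 probe sets disagreed on whether the gene changed.

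The remaining measured base genes encode scaffolds and a ubiquitin receptor. ADRM1, listed with the proteasome-linked genes, has no named probe set and was not analysed here. PSMD4, a receptor for ubiquitin chains, had the largest difference of all 38 genes. It gave 9.74, 9.76 and 9.40 in OBGF400 and 11.84, 12.12 and 11.63 in PK15, and the lines stood apart by far more than the spread within either. The difference was -2.23 ± 0.17 (SE; adjusted p = 0.000393, limma), a 4.68-fold fall, and it was -1.40 under hybridization control scaling and -3.08 under poly-A control scaling. PSMD2, a scaffold that also binds ubiquitin and shuttle proteins, gave 11.90, 11.89 and 11.87 against 12.13, 12.25 and 12.47. It differed by -0.39 ± 0.09 (SE; adjusted p = 0.0198, limma), and was not called without any of the OBGF400 replicates in turn (adjusted p from 0.0607 to 0.0684, limma) or without PK15 replicate 2 (adjusted p = 0.0537, limma). PSMD1, the other large scaffold, gave 11.61, 11.69 and 11.58 against 11.95, 12.01 and 12.20, a difference of -0.42 (adjusted p = 0.00846, limma). A further PSMD1 probe set was also lower, by -0.99. The ratio of PSMD4 to PSMD2 within an array changed by -1.83 on the log2 scale, a 3.57-fold change. Relative to the PK15 mean it was -1.74, -1.72 and -2.05 on the OBGF400 arrays, against 0.13, 0.29 and -0.42 on the PK15 arrays (exact permutation p = 0.1).

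The lid carries the deubiquitinating step. The median of the 7 measured lid genes was -0.80, and 5 of them were lower, 1 was higher and 1 did not pass. PSMD7, the partner of PSMD14, was not analysed here for want of a named probe set. PSMD14, the metalloprotease that cuts the ubiquitin chain from the substrate, gave 11.04, 11.13 and 11.14 in OBGF400 and 12.44, 12.62 and 12.44 in PK15. All OBGF400 arrays were lower by more than 1 on the log2 scale, and the difference of -1.40 ± 0.07 (SE; adjusted p = 8.04e-05, limma) was a 2.64-fold fall. The lid subunit gene PSMD8 gave 11.65, 11.57 and 11.50 against 12.88, 13.08 and 12.82, a difference of -1.35 (adjusted p = 0.000194, limma). PSMD3, another lid subunit gene, gave 10.16, 9.96 and 10.08 against 11.16, 11.37 and 11.33, a difference of -1.22 (adjusted p = 0.000228, limma). Lines were again far apart for both. PSMD6 differed by -0.80 and PSMD12 by -0.41, both called and both above 0 under hybridization control scaling (0.02 and 0.41). PSMD13 rose, with 10.50, 10.49 and 10.56 against 10.19, 10.34 and 10.23, a difference of 0.26 (adjusted p = 0.00737, limma) that became -0.59 under poly-A control scaling. PSMD11 gave 10.45, 10.52 and 10.56 against 10.56, 10.60 and 10.96, values that nearly touched. Its difference was the smallest of the lid (-0.20) and did not pass, and none of its 3 probe sets was called, with differences of -0.20, -0.11 and -0.22. SEM1, a small lid subunit without a PSM symbol, was also lower (12.57 ± 0.03 against 13.47 ± 0.04, SD, n = 3), by -0.90 (adjusted p = 2.25e-05, limma).

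The activators went in different directions. PSME1 and PSME2 encode the partner subunits of a ring that is raised by interferon gamma and is known for its part in antigen processing, and both were lower in OBGF400. In the RefSeq gene table of the assembly Sscrofa11.1 they are near neighbours, with 1 gene between them. PSME1 gave 10.40, 10.56 and 10.48 against 10.89, 11.02 and 10.74, a difference of -0.40 ± 0.09 (SE; adjusted p = 0.014, limma). PSME2 gave 9.89, 10.05 and 10.10 against 10.76, 10.92 and 10.68, a difference of -0.77 ± 0.09 (SE; adjusted p = 0.00154, limma). Neither overlapped between lines, and under hybridization control scaling they became 0.42 and 0.05. PSME3, which forms a nuclear activator ring of its own, rose. It gave 9.68, 9.72 and 9.74 against 9.21, 9.31 and 8.96, a difference of 0.55 ± 0.10 (SE; adjusted p = 0.00785, limma), and -0.30 under poly-A control scaling. The ratio of PSME3 to PSME1 within an array was higher in OBGF400 by 0.95, a 1.94-fold change, with 1.00, 0.88 and 0.98 on the OBGF400 arrays and 0.05, 0.02 and -0.06 on the PK15 arrays relative to the PK15 mean. The ratio of PSME2 to PSME1 changed by -0.37, with an SD of 0.08 over the OBGF400 arrays and 0.04 over the PK15 arrays (n = 3 each). Both ratios to PSME1 gave an exact permutation p of 0.1. PSME4, a large activator linked to histone degradation, gave 9.05, 9.35 and 9.21 against 9.09, 9.36 and 9.31. The lines overlapped fully, and the difference of -0.05 did not pass (95% interval -0.35 to 0.25, adjusted p = 0.806, limma).

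PSMF1, an inhibitor of the core particle, gave 8.18, 8.05 and 7.92 in OBGF400 and 8.39, 8.41 and 8.07 in PK15. The lines overlapped and the difference of -0.24 did not pass (adjusted p = 0.17, limma), but without PK15 replicate 3 it was -0.35 and passed (adjusted p = 0.0398, limma). Its other probe set gave 7.31 ± 0.13 against 6.56 ± 0.09 (SD, n = 3), a difference of 0.76 in the opposite direction that was called over all probe sets (adjusted p = 0.00272, limma). Over the 44 probe sets of the 38 genes, 26 were called lower and 7 higher, where 21.7% and 20.2% of all probe sets were. Those shares include probe sets at the floor, where no proteasome gene lay. Among genes above the median signal, tested alone, 51.6% were lower and 32.4% higher. The direction of PSMF1 therefore rests on the probe set. Of the 38 genes, 34 had a single probe set, so no such comparison was possible for them.

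The assembly factors build the rings and do not remain in the finished complex. PSMG1 and PSMG3 help form the alpha ring, and PSMD5 and PSMD10 escort the ATPases of the base. PSMG2, PSMG4 and PSMD9 were not analysed here. PSMG3 gave 7.08, 7.61 and 7.44 in OBGF400 and 8.44, 8.93 and 8.57 in PK15, a difference of -1.27 ± 0.20 (SE; adjusted p = 0.00486, limma). PSMD10, also known as the oncoprotein gankyrin, gave 8.86, 8.83 and 8.97 against 9.99, 10.24 and 9.96, a difference of -1.18 (adjusted p = 0.000392, limma). PSMG1 gave 10.17, 10.38 and 10.34 against 10.86, 10.96 and 10.80, a difference of -0.58 (adjusted p = 0.00239, limma), and 0.25 under hybridization control scaling. All of these were lower on every OBGF400 array. PSMD5 was the exception and had the largest rise of all 38 genes, with 11.39, 11.20 and 11.32 against 10.49, 10.25 and 10.31. The difference was 0.96 ± 0.09 (SE; adjusted p = 0.000618, limma), a 1.94-fold rise, and under poly-A control scaling it was 0.10 and not called. The base escorts PSMD5 and PSMD10 thus differed between the lines in opposite directions as deposited.

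Set side by side, the median fall was larger in the core particle and lid than in the base and activators. The median difference was -0.63 over 14 core genes, -0.80 over 7 lid genes, -0.25 over 8 base genes, -0.23 over 4 activator genes and -0.88 over 4 assembly genes. It was -0.002 over all genes and -0.274 over the genes above the median signal, so the base and activator medians lay near that of well-detected genes. No test was made over these groups, whose members were chosen with results known. The core particle had 11 of 14 genes lower and 0 higher by limma (1 higher at an unadjusted p under 0.05). The base had 5 lower and 1 higher, the lid 5 lower and 1 higher, and the activators 2 lower and 1 higher. Of all genes 36.8% were lower and 23.9% higher, and of those above the median signal, tested alone, 51.6% and 32.4%. Within each role the genes still ranged widely, from -1.44 to 0.23 in the core, from -2.23 to 0.59 in the base and from -1.40 to 0.26 in the lid, so the ranges overlapped. When each gene was set against its own mean over the 6 arrays, the core median was -0.32, -0.29 and -0.35 on the OBGF400 arrays and 0.22, 0.47 and 0.26 on those of PK15. The base median was nearer to 0, with -0.15, -0.11 and -0.13 against 0.06, 0.17 and 0.12. PK15 replicate 2 was the highest PK15 array for 31 of the 38 genes, where this array was highest for 43.1% of the 5718 genes not at the floor. Without it, the median over the 38 genes was -0.43, with 25 lower and 5 higher.

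**Figure D3:**
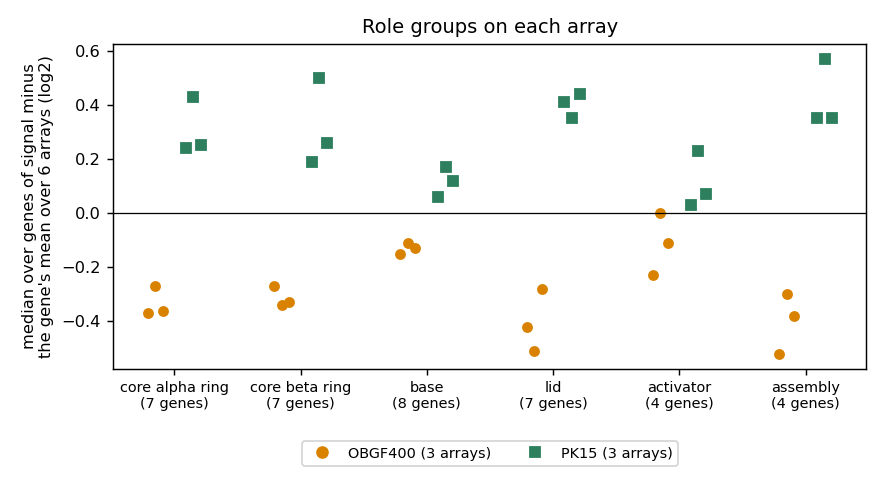
Median, over the genes of each role, of the log2 signal minus the gene's mean over 6 arrays (y axis), for each OBGF400 array (circles) and PK15 array (squares). The lines are apart in each role plotted, with the base and the activators closest to 0. The activator medians nearly touch, at -0.0 on OBGF400 replicate 2 and 0.03 on PK15 replicate 1. Medians of the base ATPase genes alone, not plotted, overlapped between lines. The inhibitor PSMF1, whose arrays overlapped between lines, is not plotted.

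**Figure D4:**
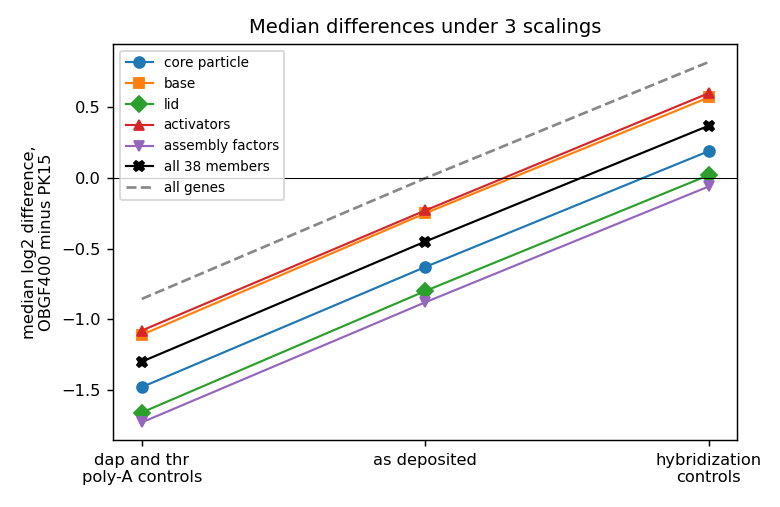
Median log2 difference, OBGF400 minus PK15 (y axis), of each role group, all 38 members and all genes under 3 scalings of the arrays. The median of the 38 members runs from -1.30 to 0.37; a control scaling adds the same amount to the difference of every gene, so the lines of the plot are parallel by construction.

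Genes that act before or beside the proteasome were called in both directions. Over 59 measured genes of ubiquitin, its enzymes, shuttle and extraction factors, cullin ligases, the COP9 signalosome and proteasome-linked proteins, 29 were lower (49.2%) and 16 higher (27.1%), and 14 did not pass. Their median difference was -0.15. These shares stood beside 36.8% and 23.9% of all genes, and 51.6% and 32.4% of the genes above the median signal. The ubiquitin genes UBB (-0.28) and RPS27A (-0.08) were both lower, by little. Of 3 measured E1 enzymes, which activate ubiquitin or its relatives, SAE1 (-0.89) and UBA2 (-0.35), the subunits of the SUMO-activating enzyme, were lower.

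Of 24 E2 conjugating enzymes, 11 were lower and 6 higher. UBE2C, the mitotic partner of the anaphase-promoting complex, gave 4.83, 6.87 and 5.44 in OBGF400 against 9.05, 9.24 and 9.25 in PK15, a difference of -3.47 with a wide spread in OBGF400. UBE2T, an enzyme of DNA crosslink repair, differed by -2.17. UBE2R2, which works with cullin ligases, rose by 1.60. UBE2QL1 rose by 1.12, at low signals near the floor (4.33 ± 0.23 against 3.20 ± 0.32, SD, n = 3). Of 9 shuttle and extraction factors 2 were higher and 4 lower. The autophagy and ubiquitin receptor SQSTM1 (1.32) and FAF2, a cofactor of the segregase VCP (2.45), were higher, and UBXN4 (-1.12) and UFD1 (-0.75) were lower. VCP itself was at 11.54 ± 0.07 against 11.56 ± 0.07 (SD, n = 3) and was not called.

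The COP9 signalosome, a relative of the lid that removes NEDD8 from cullins, had 6 of 7 genes lower and 1 higher, with a median of -0.76. COPS3 differed by -2.10 and COPS5, its catalytic subunit, by -1.98, while COPS2 rose by 0.75. Under hybridization control scaling 3 of these 7 genes were called lower and 3 higher, and under poly-A control scaling 6 lower and 0 higher. The counts of these lists stand beside 36.8% lower and 23.9% higher over all genes. Among genes above the median signal, tested alone, the shares were 51.6% and 32.4%. Of 9 cullin ligase genes 3 were higher, with CUL1 at 1.12 and CUL2 at 1.04, and 3 were lower, with RNF7 at -0.72 and NEDD8 at -0.64. Of 5 proteasome-linked genes 4 were higher, among them AKIRIN2, an importer of proteasomes into the nucleus (1.16), and ZFAND5, a proteasome-binding zinc finger protein (0.83), and SEM1 was lower. The 8 listed regulators, such as NFE2L1, a transcription factor of proteasome genes, have no named probe set and were not analysed here. The measured immunoproteasome genes were both lower in OBGF400. PSMB8, the interferon-induced counterpart of PSMB5, was at 3.44 ± 0.12 against 8.65 ± 0.09 (SD, n = 3), and PSMB10, the counterpart of PSMB7, at 7.90 ± 0.10 against 9.31 ± 0.13 (SD, n = 3).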

How the data were processed

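The values the authors deposited are log2 signals, 1 for each probe set on each array. They were made with affy, per the submitters' processing notes; its version, the summary method and the normalization are not given in the sources that were used. From each pool, 8 µg of RNA was labelled, per the labels' protocols. Of 24123 probe sets, 124 controls were left out of the tests. Symbols came from the platform annotation, in which 10069 tested probe sets had 1 symbol, 198 several and 13732 none. By Entrez number 9961 were found in the RefSeq table of Sscrofa11.1, which renamed 0. The lines were compared over 6765 genes with limma 3.58.1 (lmFit, eBayes, two-sided) in R 4.3.3, with tables made in Python 3.11.15, and the script was tested on simulated data. The members, lists, named genes and alternatives were chosen with earlier results of these data known. Every member was named; those with values per array were the proteolytic subunits, the activators, PSMF1 and, by role, up to 3 called rises and 3 called falls and the smallest difference. From other lists, up to 2 called genes per direction were named. Array values of PSMA3, PSMB3 and PSMD2, VCP and the gene ratios were added after the values had been seen. The alternatives were quantile normalization, median centring, control scalings, signal filters, variance models, array weights, 32 added to linear values, averaging the probe sets of a gene, a threshold of 0.01, the replicate block and leaving out each array. The number of arrays limits the precision. With 3 arrays against 3, an exact permutation p cannot go below 0.1.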

Additional observations from a re-analysis of the deposited data

How the results depend on the processing

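Scaling was the choice that moved the results most. Under hybridization control scaling 18 proteasome genes were higher and 9 lower. The medians became 0.37 for all 38 members, 0.19 for the core, 0.57 for the base, 0.02 for the lid, 0.60 for the activators and -0.06 for the assembly genes, and 38 other pathway genes were higher and 7 lower. Single differences that changed sign there were those of PSMA1 (0.32), PSMA2 (0.15), PSMA6 (0.73), PSMA7 (0.17), PSMB1 (0.62), PSMB2 (0.22), PSMB3 (0.39), PSMB7 (0.48), PSMC1 (0.35), PSMC5 (0.71), PSMC6 (0.72), PSMD1 (0.40), PSMD2 (0.43), PSMD6 (0.02), PSMD11 (0.63), PSMD12 (0.41), PSME1 (0.42), PSME2 (0.05), PSME4 (0.77), PSMF1 (0.58) and PSMG1 (0.25). Under poly-A control scaling 0 proteasome genes were higher by limma (0 at an unadjusted p under 0.05), the medians were -1.30 for all members, -1.48 for the core, -1.11 for the base, -1.66 for the lid, -1.08 for the activators and -1.73 for the assembly genes, and 3 other pathway genes were higher and 45 lower. There PSMA3 (-0.63), PSMC2 (-0.78), PSMC3 (-0.26), PSMD13 (-0.59) and PSME3 (-0.30) changed sign. The 9 genes lower under all 3 scalings were also called lower in each of the 18 alternatives. Of these alternatives, 2 are the control scalings by which the 9 were picked, so their calls there were fixed by that choice. All counts called under the control scalings are description only, since the shift of an array is shared by its genes. Median centring gave -0.53 for all members, -0.33 for the base and -0.00 for PSMC2, and the mean of probe sets turned PSMF1 to 0.26. Leaving out each array gave 23 to 27 lower and 4 to 5 higher proteasome genes, medians from -0.52 to -0.43 for all members and from -0.32 to -0.22 for the base, and PSME4 differences from -0.13 to 0.02. Apart from the control scalings and left-out arrays, 364 of 380 single differences kept their sign and call.

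The replicate numbers did not meet the criterion for pairing, with correlations of deviations of 0.085, 0.071 and 0.039 for the same number, each the highest of its array, as a hint from the data only. With the replicate number as a block 4 proteasome genes were higher and 24 lower, and PSMB1 (adjusted p = 0.0944, limma) and PSMD2 (adjusted p = 0.0672, limma) were no longer called. The cause of these changes was not tested.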
